A study of Nicotiana tabacum with 8 samples.

Results

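Polyamines are small, positively charged molecules that bind nucleic acids and membranes and accumulate in dividing and expanding plant tissue. The first of them, putrescine, is made from ornithine by ornithine decarboxylase or, over further steps, from arginine by arginine decarboxylase. Spermidine synthase and spermine synthase then add aminopropyl groups, which come from S-adenosylmethionine once S-adenosylmethionine decarboxylase has acted on it. In tobacco, putrescine is also the entry to nicotine, since putrescine N-methyltransferase, an enzyme related to spermidine synthase, commits it to the alkaloid. Nicotine is made mainly in roots, whereas the tissue sequenced here was the shoot tip.

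The set described here holds 8 tomato gene numbers for these enzymes, out of 34725 coding sequences listed in each file. They are 1 ornithine decarboxylase (Solyc04g082030), 2 arginine decarboxylases (Solyc01g110440 and Solyc10g054440), 2 S-adenosylmethionine decarboxylases (Solyc05g010420 and Solyc02g089610), 2 spermidine synthases (Solyc05g005710 and Solyc04g026030) and 1 spermine synthase (Solyc03g007240). The genes were listed by enzyme, and the names came with the list. The deposited files pair no name with a gene number, so the names could not be checked against them. The files place each gene only within its own coding sequence, from base 1 to its end. The chromosome digits of the tomato gene numbers put Solyc04g082030 and Solyc04g026030 on chromosome 4, Solyc05g010420 and Solyc05g005710 on chromosome 5, and the others on chromosomes 1, 10, 2 and 3. Coding lengths ran from 930 bp for Solyc04g026030 to 2124 bp for Solyc10g054440.

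The plants were tobacco seedlings (Nicotiana tabacum, cultivar Samsun) grown on Murashige and Skoog medium with sucrose. Germinated for 6 days, they were moved to closed vessels holding 3 seedlings each and kept there for 10 days. Control vessels had no fungus, and TC09-exposed vessels shared their air with a culture of TC09, a strain of Cladosporium sphaerospermum that emits microbial volatile organic compounds (MVOCs). RNA of the shoot apex with its 3 to 4 youngest leaves was sequenced in 4 control libraries (9 to 12 in the labels) and 4 TC09-exposed libraries (13 to 16). The study describes a replicate as a plant and the labels as the seedlings of a vessel, so the p-values measure the spread between libraries, whichever unit that was. Markers of shoot or root tissue carry no name in the files and were not examined.

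The tobacco reads were counted on tomato coding sequences, with 7853857 to 9674090 total gene reads per library. Copies of a gene in the tobacco genome that resemble 1 tomato gene are counted together there. The RefSeq gene table of tobacco (assembly ASM71507v2) was searched for short enzyme names among gene symbols and synonyms. The search found 1 gene for ornithine decarboxylase, 3 for arginine decarboxylase, 1 for S-adenosylmethionine decarboxylase and 4 for putrescine N-methyltransferase. It found 0 for spermidine synthase and 0 for spermine synthase, and a gene listed without such a short name would be missed. Which tobacco genes gave the reads, and whether reads of the N-methyltransferases were counted on the spermidine synthases, was not examined. Over all genes tested, exposed library 14 stood apart. Of the genes called without it, it lay closer to the controls than to the other exposed libraries in 39.6%, whereas the same share was 4.56% to 23.6% for each of the other 7 libraries and 14.1% for control library 12.

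In edgeR, 1 of the 8 genes fell after TC09 exposure and 7 did not pass the test at an adjusted p of 0.05 or less. The gene that fell was the S-adenosylmethionine decarboxylase gene Solyc02g089610, at 0.615 times the control level. In whole shoot tips, less RNA per cell cannot be told apart from fewer cells that express a gene. Ornithine decarboxylase had the largest fitted ratio of the set, 2.43 times the control, but 1 control library was as high as the exposed ones. The gene was not called in edgeR, whereas DESeq2 and limma-voom called it as higher. Spermine synthase lay lower in each exposed library than in any control, by a margin that also missed the threshold. The fitted levels of the spermidine synthases differed by -1.41% and 1.68% from the control. The arginine decarboxylases varied widely within each group, and the 95% intervals of their ratios lay on both sides of 1.

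Calls were made with edgeR's quasi-likelihood test on total gene reads, adjusted by Benjamini-Hochberg over 19325 genes. All 8 genes passed its filter on low counts. Among all genes tested 21.5% were called, 9.56% as higher and 12% as lower, so 1 call of 8 is no larger a share than the background. An unadjusted p under 0.05 was found in 4 of the 8 genes and in 35.3% of all genes tested (edgeR). Log2 fold changes lay above 0 in 4 genes and below 0 in the other 4, with a median of 0.00, beside 0.01 over all genes tested. As CPM, every exposed library lay below every control in 2 of the 8 genes (13.4% of all genes tested) and above every control in none (11.5%).

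**Figure D1:**
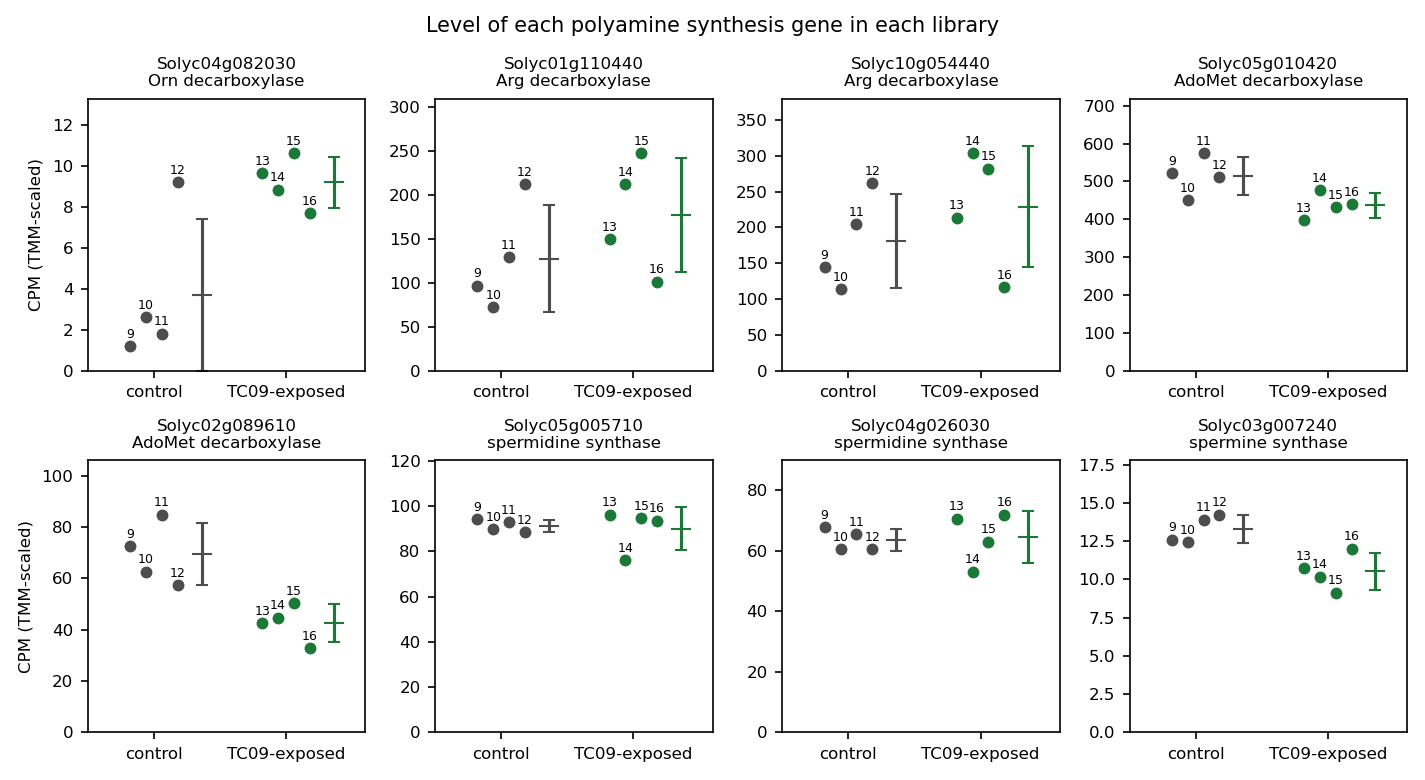
Level of each gene in counts per 1e6 reads (CPM, on TMM-scaled library sizes; vertical axes from 0) in the 4 control libraries (grey) and the 4 TC09-exposed libraries (green), each point labelled with its library number; bars at the side give mean and SD. The groups are separate only for Solyc02g089610 and Solyc03g007240, and control library 12 lies among the exposed libraries for Solyc04g082030.

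Ornithine decarboxylase, which takes the carboxyl group from ornithine in the direct route to putrescine, was the least abundant gene of the set. Solyc04g082030 had 10, 23, 14 and 83 reads in control libraries 9, 10, 11 and 12 and 88, 79, 107 and 68 reads in exposed libraries 13, 14, 15 and 16. All of these reads were unique to the gene. As CPM, a scale that corrects for depth, the controls stood at 1.21, 2.62, 1.82 and 9.22 and the exposed libraries at 9.65, 8.84, 10.6 and 7.70. Control library 12 thus lay within the range of the exposed libraries, while the other 3 controls lay far below it. Counting error alone gives an exact 95% interval of 66.1 to 103 reads for library 12 and of 14.6 to 34.5 reads for library 10, the next highest control.

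Controls averaged 3.72 ± 3.71 CPM for Solyc04g082030 and exposed libraries 9.20 ± 1.23 CPM (SD over 4 libraries). This gave a log2 ratio of 1.28 ± 0.480 (SE), at an adjusted p of 0.0836 in edgeR, with a 95% interval of 1.16-fold to 5.09-fold before adjustment. The outcome in edgeR changed with control library 12. Without it the control mean was 1.89 ± 0.709 CPM (SD, n = 3), the log2 fold change 2.27 and the adjusted p 0.00122 (edgeR), from a fit that called 6.61% of genes as higher. With all 8 libraries the gene was also called as higher by DESeq2 (adjusted p = 0.0412, with 10.6% of genes called higher) and by limma-voom (adjusted p = 0.0207, with 9.21%). Without exposed library 14 the log2 fold change was 1.30 and the adjusted p 0.0855 (edgeR). Over the 16 alternatives the log2 fold change ran from 1.00 to 2.27 and the adjusted p from 0.00122 to 0.193.

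Control library 12 was also the highest control for both arginine decarboxylases and for spermine synthase, and the lowest control for Solyc02g089610 and the spermidine synthase Solyc05g005710. What sets the library apart in these genes was not tested.

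Over the 14242 genes with a mean of at least 50 reads, the pattern most like that of Solyc04g082030 was found in Solyc05g005810 and Solyc06g082030. Likeness was taken as the mean absolute difference of log2 CPM over the 8 libraries, after removal of each gene's mean, and was 0.36 and 0.39. Solyc06g082030 had 7.44 CPM in control library 12, 1.95 to 3.63 CPM in the other controls and 4.87 to 9.54 CPM in the exposed libraries. In Solyc05g005810 control library 12 (12.7 CPM) lay just above the other controls (7.28 to 11.5 CPM) and well below the exposed libraries (26.3 to 34.6 CPM). The sources used here give neither gene a name.

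Arginine decarboxylase opens the other route to putrescine, through agmatine. Solyc01g110440 had 96.8, 72.7, 129 and 212 CPM in control libraries 9 to 12 and 149, 212, 247 and 102 CPM in exposed libraries 13 to 16. Solyc10g054440 had 145, 114, 205 and 262 CPM in the same controls and 214, 303, 282 and 116 CPM in the exposed libraries. In both genes control library 12 was the highest control and exposed library 16 the lowest exposed library, within the range of the controls. The order of the 4 controls was the same for both genes, with 12 above 11, 9 and 10, and the exposed libraries differed only in which of 14 and 15 came first.

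For Solyc01g110440 the log2 ratio of exposed to control was 0.48 ± 0.339 (SE) and for Solyc10g054440 it was 0.34 ± 0.312 (SE), at adjusted p of 0.342 and 0.474 in edgeR. The 95% intervals, 0.826-fold to 2.34-fold and 0.782-fold to 2.04-fold, lie on both sides of 1. The spread within groups was wide for these genes. The SD of log2 CPM within a group was 0.61 for Solyc01g110440 and 0.58 for Solyc10g054440, against a median of 0.21 over all genes tested. Of the genes tested, 96.9% and 96.2% had a smaller one. Ornithine decarboxylase had a still wider SD, 0.78, with 98.9% of the genes tested below it. Neither gene was called under any of the 16 alternatives, with adjusted p from 0.0873 to 0.634 and from 0.163 to 0.736.

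Levels of different genes were compared per length, as transcripts per 1e6 (TPM). In the control, Solyc01g110440 had 64.5 ± 33.1 TPM and Solyc10g054440 had 78.4 ± 31.5 TPM (SD, n = 4 each), beside 2.66 ± 2.75 TPM (SD, n = 4) for ornithine decarboxylase. How well the tobacco reads of each enzyme map to its tomato gene was not measured, and levels of different genes depend on it. Ornithine decarboxylase made up 0.764%, 2.12%, 0.831% and 2.88% of the summed TPM of these 3 genes in control libraries 9 to 12 and 3.92%, 2.57%, 2.96% and 5.11% in exposed libraries 13 to 16. The mean share was 1.65% ± 1.03 (SD, n = 4) in the control and 3.64% ± 1.13 (SD, n = 4) after exposure, and the groups overlapped through control library 12. Exposed library 16, with the fewest arginine decarboxylase reads of its group, had the highest share.

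**Figure D2:**
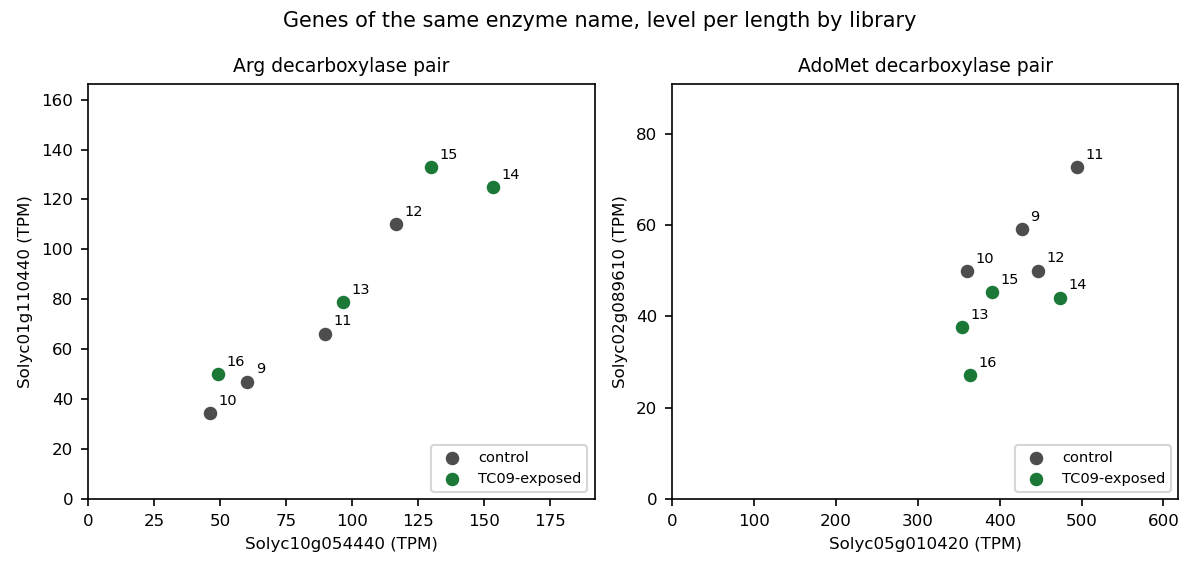
TPM of both genes of a pair in each library, numbered as in the labels, for arginine decarboxylase (left) and S-adenosylmethionine decarboxylase (right); grey points are control and green points TC09-exposed libraries, and all axes start at 0. The arginine decarboxylases vary together with the groups mixed, whereas Solyc02g089610 sits lower in the exposed libraries over a similar range of Solyc05g010420.

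S-adenosylmethionine decarboxylase supplies the aminopropyl donor for spermidine and spermine. Its gene Solyc05g010420 was the most abundant of the set, with 522, 450, 574 and 511 CPM in control libraries 9 to 12 and 398, 477, 431 and 440 CPM in exposed libraries 13 to 16. The groups overlapped, since exposed library 14 lay above control library 10. The log2 ratio was -0.24 ± 0.107 (SE), at an adjusted p of 0.141 in edgeR, with a 95% interval of 0.721-fold to 1.00-fold before adjustment. The gene was not called under any alternative (adjusted p 0.0703 to 0.424).

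The other gene, Solyc02g089610, was the 1 gene of the set that edgeR called. It had 72.6, 62.6, 84.7 and 57.4 CPM in control libraries 9 to 12 and 42.5, 44.7, 50.3 and 32.9 CPM in exposed libraries 13 to 16. The highest exposed library stood below the lowest control, so the groups did not overlap. Controls averaged 69.3 ± 12.03 CPM and exposed libraries 42.6 ± 7.27 CPM (SD over 4 libraries). The log2 ratio was -0.70 ± 0.151 (SE), at an adjusted p of 0.00973 in edgeR. The fold was 0.615, with a 95% interval of 0.487 to 0.776 before adjustment. The call rests on 2317 reads over the controls and 1584 over the exposed libraries, all unique to the gene.

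The call of Solyc02g089610 was kept under each of the 16 alternatives, with log2 fold changes from -0.79 to -0.58 and adjusted p of at most 0.0362. Without exposed library 14 the log2 fold change was -0.72 (adjusted p = 0.0110, edgeR), and without control library 12 it was -0.78 (adjusted p = 0.00969, edgeR).

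**Figure D3:**
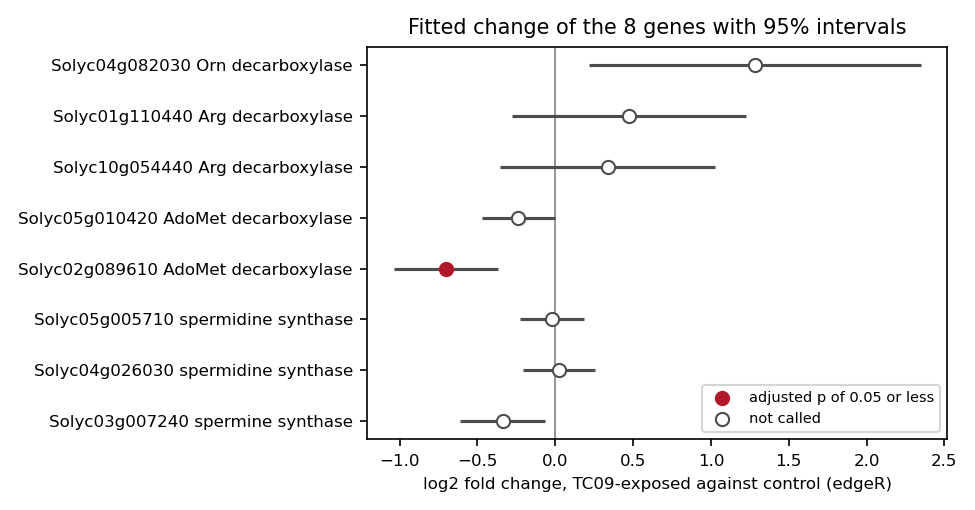
Log2 fold change of TC09-exposed against control libraries for each of the 8 genes (edgeR, 4 libraries a group), with lines for the 95% interval before adjustment; the filled point marks the called gene and open points the genes not called. Only Solyc02g089610 is called in edgeR, and the interval of Solyc04g082030 is the widest.

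Per length, Solyc05g010420 stood at 432 ± 55.9 TPM and Solyc02g089610 at 57.9 ± 10.7 TPM in the control (SD, n = 4 each). Solyc02g089610 held 12.1%, 12.2%, 12.8% and 10.1% of the summed TPM of the pair in control libraries 9 to 12 and 9.60%, 8.52%, 10.4% and 6.92% in exposed libraries 13 to 16. The share was 11.8% ± 1.19 in the control and 8.86% ± 1.50 after exposure (SD, n = 4 each), with exposed library 15 slightly above control library 12. Whether the fall of Solyc02g089610 differed from the ratio of Solyc05g010420 was not tested.

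Spermidine synthase joins an aminopropyl group to putrescine. Solyc05g005710 had 94.3, 89.9, 92.9 and 88.4 CPM in control libraries 9 to 12 and 96.1, 76.1, 94.6 and 93.5 CPM in exposed libraries 13 to 16. Apart from exposed library 14, all libraries lay between 88.4 and 96.1 CPM. Solyc04g026030 had 67.8, 60.6, 65.5 and 60.6 CPM in the controls and 70.7, 53.2, 63.0 and 71.9 CPM in the exposed libraries. As CPM, exposed library 14 was the lowest of the 8 libraries for both genes. As TPM, control library 10 was the lowest for both (75.7 and 56.4 TPM, against 79.5 and 61.5 TPM in exposed library 14).

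The log2 ratios were -0.02 ± 0.091 (SE) for Solyc05g005710 and 0.02 ± 0.105 (SE) for Solyc04g026030, at adjusted p of 0.896 and 0.894 in edgeR. The 95% intervals, 0.857-fold to 1.13-fold and 0.865-fold to 1.20-fold, bound the changes that these libraries allow. Without exposed library 14 the values were 0.05 and 0.11 (adjusted p = 0.619 and 0.374, edgeR). The sign of values this small changed with the scaling of the libraries and with single libraries. Reads were 97.9% and 97.8% unique, so few were shared with another tomato gene. This does not show which tobacco genes the reads came from. Solyc04g026030 held 43.5% ± 0.716 of the TPM of the pair in the control and 44.2% ± 1.54 after exposure (SD, n = 4 each).

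Spermine synthase adds the second aminopropyl group, to spermidine. Solyc03g007240 had 104, 109, 107 and 128 reads in control libraries 9 to 12 and 98, 91, 92 and 106 in exposed libraries 13 to 16. As CPM the controls stood at 12.6, 12.4, 13.9 and 14.2 and the exposed libraries at 10.7, 10.2, 9.13 and 12.01. On that scale the groups did not overlap, though exposed library 16 and control library 10 were close. As TPM they did overlap, with exposed library 14 (10.23 TPM) slightly above control library 10 (10.06 TPM). Controls averaged 13.3 ± 0.902 CPM and exposed libraries 10.5 ± 1.20 CPM (SD over 4 libraries). The log2 ratio was -0.34 ± 0.123 (SE), at an adjusted p of 0.0754 in edgeR, a fold of 0.791 with a 95% interval of 0.655 to 0.955 before adjustment. The threshold was missed under each of the 16 alternatives (adjusted p 0.0630 to 0.179).

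The 3 aminopropyltransferases differed in level. In the control, per length, spermine synthase had 11.3 ± 1.24 TPM, against 80.6 ± 3.58 TPM for Solyc05g005710 and 62.1 ± 4.14 TPM for Solyc04g026030 (SD, n = 4 each). Spermine synthase made up 7.32% ± 0.598 of their summed TPM in the control and 5.92% ± 0.742 after exposure (SD, n = 4 each). The library values overlapped, with 6.67% in control library 9 and 6.76% in exposed library 14.

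Over the 8 genes the order of control levels per length was led by Solyc05g010420 and closed by spermine synthase and ornithine decarboxylase. Between them stood Solyc05g005710, Solyc10g054440, Solyc01g110440, Solyc04g026030 and Solyc02g089610, at means of 57.9 to 80.6 TPM. Neighbours within this middle group differed by less than their SDs in the control except Solyc04g026030 and Solyc02g089610, whose difference of means lay within the SD of the latter only. After exposure the order in the middle was Solyc10g054440 (107 ± 45.3 TPM), Solyc01g110440 (96.6 ± 39.2 TPM), Solyc05g005710 (85.2 ± 5.53 TPM), Solyc04g026030 (67.6 ± 4.93 TPM) and Solyc02g089610 (38.5 ± 8.35 TPM; SD, n = 4 each). Solyc02g089610 was then apart from its neighbour by more than either SD. Ornithine decarboxylase remained the lowest, at 6.96 ± 1.15 TPM, next to spermine synthase at 9.57 ± 0.847 TPM (SD, n = 4 each).

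**Figure D4:**
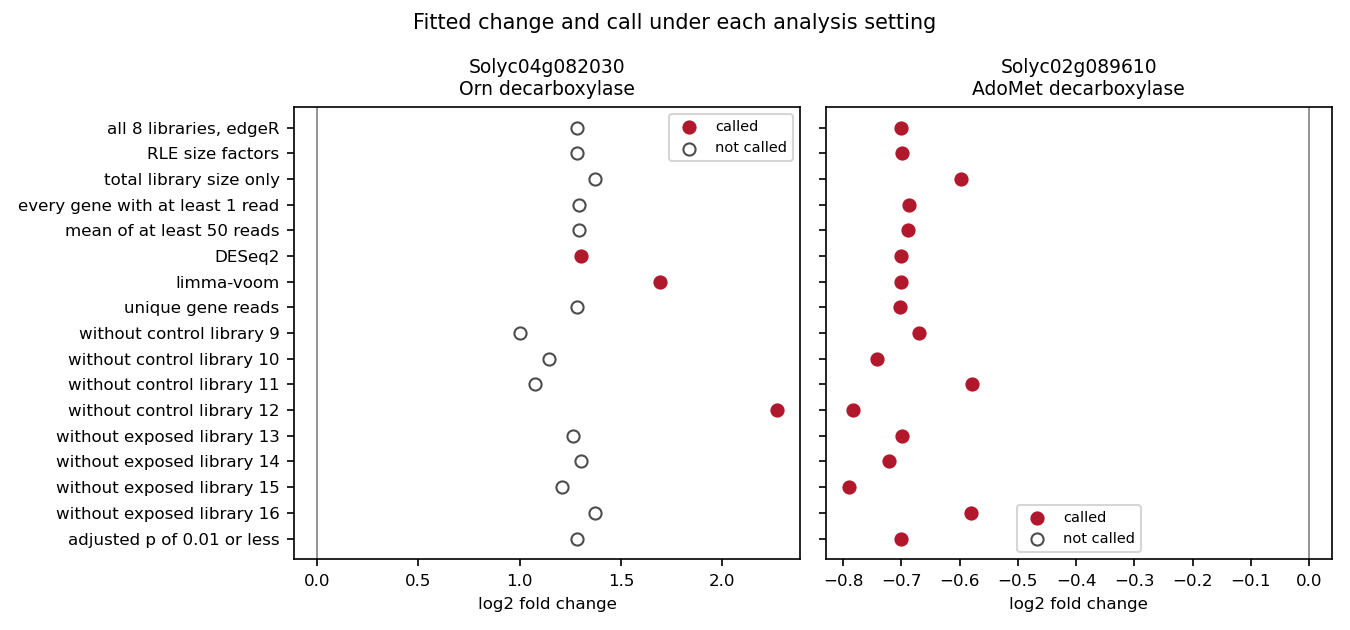
Log2 fold change of ornithine decarboxylase (left) and Solyc02g089610 (right), on separate horizontal scales, with all 8 libraries in edgeR and under each of the 16 alternatives; filled points are called and open points are not. Solyc02g089610 is called in every row, and ornithine decarboxylase only with DESeq2, with limma-voom and without control library 12.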

How the data were processed

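Total RNA of 8 libraries (4 control, 4 TC09-exposed) was sequenced on the Illumina HiSeq; read length is 50 bp in the paper, 50 bp and 100 bp in the labels. Groups follow the source name and exposure tag, because 1 treatment text, on unexposed culture, is given to every library. After trimming and filtering, the authors mapped reads to tomato in CLC Genomics Workbench (version 10, at its defaults) and deposited counts of total and unique gene reads. The sources used here name no annotation release. The TPM values the authors deposited equal total gene reads per coding length, scaled to 1e6, to within 1.9e-10. Lengths deposited are coding lengths.

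The test was edgeR's (version 4.0.16, R version 4.3.3) on total gene reads: filterByExpr defaults (count of 10, total of 15), TMM factors of 0.938 to 1.10, a quasi-likelihood fit with condition as its only term, prior count 0.125, and Benjamini-Hochberg adjustment over 19325 genes. The threshold, an adjusted p of 0.05, is the paper's. Standard errors are the absolute log2 fold change over the square root of F. Within-group SDs use log2(CPM + 0.5). Chi-square per degree of freedom between libraries of a group was 6.42 to 34.4, more than sampling noise gives (about 1). The biological coefficient of variation was 16.5%. Intervals on reads cover counting error only. The procedure was tested on simulated data.

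The text names all 8 members and the 2 genes most like ornithine decarboxylase. Members and lists were chosen with earlier results of these data known. Further genes of the pathway were not described, because no source used here pairs their tomato numbers with a name, and no sequences are shown. Alternatives were RLE and total-size scaling, 2 other filters, DESeq2 (version 1.42.0), limma-voom (limma version 3.58.1), unique reads, an adjusted p of 0.01 and each library left out in turn.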

Additional observations from a re-analysis of the deposited data

Results flagged for a closer look

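The spermidine synthase gene Solyc05g005710 had 76.1 CPM in exposed library 14, while the other 3 exposed libraries had 93.5 to 96.1 CPM. The gap to the nearest library was 0.867 of the range of the group, past Dixon's 95% critical value for 4 samples. This was 1 of 30 groups of 4 values examined, and chance passes that value in about 1 group of 20. Ornithine decarboxylase in control library 12 (9.22 CPM) came close to it, with a gap of 0.824 of the range. The gap of Solyc05g005710 was seen on the CPM scale and depends on the scaling. As TPM, exposed libraries 13 to 16 had 89.9, 79.5, 90.1 and 81.5, with library 14 close to library 16.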

How the results depend on the processing

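Of 128 member values under the 16 alternatives, 120 kept their direction and their side of the threshold, 3 passed it newly and 5 changed sign. The 3 were ornithine decarboxylase with DESeq2, with limma-voom and without control library 12, so that 1 gene of the set was higher there and 0 to 1 when single libraries were left out. The 5 were spermidine synthases near 0. Solyc05g005710 turned to 0.073 (log2) with total library size, and ran from -0.051 to 0.053 when single libraries were left out, as Solyc04g026030 did from -0.019 to 0.11. That scaling put the median log2 ratio over all genes at 0.11 in place of 0.01. Over all genes, 1847 were higher and 2317 lower, against 3057 and 1663 with total library size and 701 and 1031 at an adjusted p of 0.01. Leaving out single libraries gave 1148 to 2575 higher and 1468 to 2863 lower. The lowest numbers came without control libraries 9 and 11 and exposed library 13, and the highest without exposed library 14. Unique reads in place of total reads moved each share of a pair by less than its SD. Leaving control library 12 out of the shares was chosen after seeing the data, and gave ornithine decarboxylase 1.24% of the 3 decarboxylases. No paired analysis was possible because the labels give the groups no shared replicate number. Ornithine decarboxylase is the member whose ratio is least precise, with an SE of 0.480 (log2). It had 10 to 107 reads per library and the widest within-group SD of the set, 0.78 in log2 CPM. Whether either sets its precision was not tested.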
